A study of Sinotaia aeruginosa with 24 samples.

Results

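Cytosolic HSP70 and HSP90 are represented here by 3 gene clusters of an assembled snail transcriptome, followed across both tissues and all 4 feeding conditions of the study. They were taken by identifier from the 233875 clusters of the deposited table. Cluster-2499.57688 and Cluster-2499.75467 both carry the Swiss-Prot name Heat shock protein 70 B2, and Cluster-2499.86504 is named Heat shock cognate protein HSP 90-beta. The 3 were selected on their measured values, since their levels in these samples and their differences between diets were known when they were picked. Those values are therefore a description, with no p-value, and nothing is supported by them. By their lengths, given below, they are called the long HSP70 cluster, the short HSP70 cluster and the HSP90 cluster, in that order.

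The freshwater snail Sinotaia aeruginosa (Bellamya aeruginosa in the series title) was fed algae carrying pollutants, and RNA was sequenced on day 42 from tissues labelled brain and liver. The series set out to examine cadmium and polystyrene microplastic given together beside each given alone. The combined group received a medium concentration of both, the cadmium group a medium concentration of cadmium, the polystyrene group a medium concentration of polystyrene, and the control group neither. Each of the 8 groups of tissue and diet held 3 samples, numbered 4 to 6 in brain and 1 to 3 in liver, with no concentration stated in the labels. Nothing there says that replicates are different snails, so a p-value reflects how much these samples vary, which may be technical variation. Strain, age and sex are not given in the labels, and the numbers do not link a brain to a liver.

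HSP70 chaperones bind and release short hydrophobic stretches of unfolded or newly made proteins in a cycle that uses ATP. J-domain co-chaperones of the HSP40 (DnaJ) family set this cycle going. HSP90 acts later, on nearly folded clients, and receives many of them from HSP70 through linker proteins such as the stress-induced phosphoprotein STIP1. Most animals keep constitutive cognate copies beside inducible HSP70 genes that heat shock factor 1 switches on when damaged proteins accumulate, and cadmium, which binds protein thiols, is a known inducer in many animals. In snails the organ usually called liver is the digestive gland, which takes up food and stores metals.

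The annotation placed both HSP70 clusters in the KEGG group of cytosolic HSP70 proteins and gave both an Hsp70 domain. The long HSP70 cluster is 2717 bases long, and its best database match is a heat shock protein 70 B2-like protein of the apple snail Pomacea canaliculata. The short HSP70 cluster is a piece of 578 bases, and its best match is an unnamed protein of the mud snail Batillaria attramentaria. The HSP90 cluster, of 2583 bases, carries an Hsp90 domain and matches an HSP 90-alpha-like protein of Pomacea canaliculata best. Another cluster with the name Heat shock protein 70 B2, Cluster-2499.85497 of 1879 bases, is described beside the members, while the HSP90 cluster is the only cluster with its name. Each name is a best match and gives the family, not a proven orthologue, cellular location was not measured, and clusters from near-identical gene copies may share reads. In bulk tissue, fewer cells of a type and less RNA per cell cannot be told apart.

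Each sample held between 13712297 and 17146039 expected counts. Levels are CPM (each library's counts scaled to a common total) with TMM factors, which offset differences in composition between libraries, computed over all 24 samples, and are given per sample or as mean ± SD with n = 3. The tissue labels were checked against markers. Synaptotagmin-1, a calcium sensor of synapses, had a median of 181 CPM in brain samples and 16.1 CPM in liver samples, and Choline O-acetyltransferase 5.05 CPM in brain and 0 CPM in liver. Endoglucanase, which digests cellulose, had a median of 2.56 CPM in brain and 2880 CPM in liver. Other markers separated the tissues less well or not at all. Synaptosomal-associated protein 25 overlapped, with 30.2 to 57.1 CPM in brain and 39.1 to 54.7 CPM in liver, and its median was higher in liver. Alpha-amylase, a digestive enzyme, had 825 to 3760 CPM in brain, below the 5680 to 8510 CPM in liver. Of 16 neuronal clusters, 7 were above every liver sample in every brain sample. Yet the sum of all 16 was lower in brain (575 to 988 CPM) than in liver (995 to 1320 CPM). A pair of Neuroendocrine convertase 1 clusters were high in liver. An ELAV-like protein 4 cluster (Cluster-2499.92497) also had a higher median there, 109.78 CPM against 102.78 CPM in brain. Brain control replicate 5 stood furthest from its own group (mean correlation 0.936) and held 51100 CPM of mitochondrially encoded transcripts, against 25000 and 24800 CPM in the other control brains. The members' log2 fold changes against control brains are given with and without it.

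The long HSP70 cluster was the member that differed most between diets, and its high values lay in the cadmium groups of both tissues. In brain it had 14.3, 5.41 and 7.98 CPM under combined exposure, 51.6, 52.9 and 176 CPM under cadmium, 4.38, 5.31 and 6.49 CPM under polystyrene and 10.3, 3.59 and 9.99 CPM in controls. Every cadmium brain was above every other brain sample, and cadmium replicate 6 was more than 100 CPM above the next. In liver it had 1.99, 12.3 and 13.9 CPM under combined exposure, 77.8, 74.3 and 80.2 CPM under cadmium, 39.5, 9.25 and 9.92 CPM under polystyrene and 11.03, 11.3 and 10.6 CPM in controls. The cadmium livers again did not overlap with any other group, while polystyrene replicate 1 stood above and combined replicate 1 below their groups. The share of all clusters in which a diet stands apart from all others in this way was not computed, here or below. Behind these levels lay 24 counts in the combined liver replicate 1 and 3864 counts in the cadmium brain replicate 6.

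Ordered by mean, the long HSP70 cluster averaged 93.4 ± 71.2 CPM in cadmium brains and 77.4 ± 2.95 CPM in cadmium livers, which overlapped with each other. Next came polystyrene livers at 19.6 ± 17.3 CPM, the only neighbours in the order whose samples did not overlap being these and the cadmium livers. Control livers (10.98 ± 0.356 CPM), combined livers (9.38 ± 6.46 CPM), combined brains (9.24 ± 4.596 CPM), control brains (7.97 ± 3.79 CPM) and polystyrene brains (5.39 ± 1.06 CPM) followed, each overlapping with the next.

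**Figure D1:**
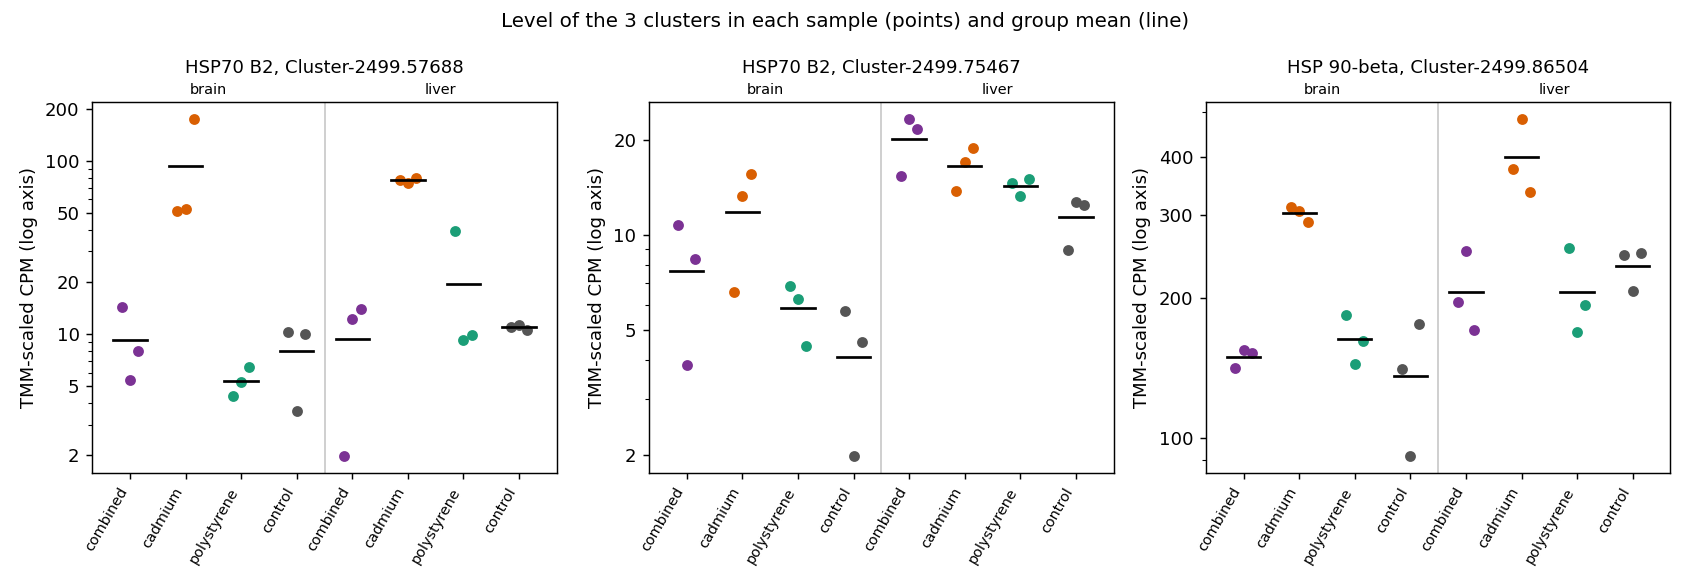
TMM-scaled CPM (log axis) of the long HSP70 cluster, the short HSP70 cluster and the HSP90 cluster in each of the 24 samples (points), by diet and tissue, with the group mean as a line. The cadmium samples of the long HSP70 cluster lie at 51.6 CPM or more in brain and 74.3 CPM or more in liver, above every other sample of the tissue, and those of the HSP90 cluster likewise.

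The HSP90 cluster was expressed at a far higher and steadier level and was also highest under cadmium in each tissue. In brain it had 141, 155 and 153 CPM under combined exposure, 313, 306 and 290.4 CPM under cadmium, 184, 144 and 162 CPM under polystyrene and 141, 91.8 and 176 CPM in controls. No brain sample of another diet reached the lowest cadmium brain, and control replicate 5 was the lowest of all. In liver it had 196, 252 and 171 CPM under combined exposure, 377, 483 and 337 CPM under cadmium, 256, 169 and 193 CPM under polystyrene and 247, 206 and 249 CPM in controls. Here too each cadmium sample was above all samples of the other diets, which overlapped with one another.

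In the order of its means, cadmium livers (399 ± 75.5 CPM) stood above cadmium brains (303 ± 11.7 CPM) with no overlap, and cadmium brains above control livers (234 ± 24.01 CPM) with none. From there on neighbours overlapped: combined livers had 206 ± 41.6 CPM, polystyrene livers 206 ± 45.2 CPM, polystyrene brains 163 ± 19.9 CPM, combined brains 149 ± 7.20 CPM and control brains 136 ± 42.1 CPM.

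The short HSP70 cluster followed another order. In brain it had 10.7, 3.87 and 8.36 CPM under combined exposure, 6.59, 13.2 and 15.5 CPM under cadmium, 6.89, 6.27 and 4.43 CPM under polystyrene and 5.74, 1.99 and 4.56 CPM in controls. Only the cadmium brains did not overlap with the controls. In liver it had 15.3, 23.4 and 21.6 CPM under combined exposure, 13.8, 16.98 and 18.8 CPM under cadmium, 14.6, 13.3 and 14.98 CPM under polystyrene and 8.93, 12.7 and 12.4 CPM in controls. All exposed livers were above all control livers, and the combined group, not the cadmium group, had the highest mean. The order was combined livers (20.1 ± 4.23 CPM), cadmium livers (16.5 ± 2.54 CPM), polystyrene livers (14.3 ± 0.899 CPM), cadmium brains (11.8 ± 4.65 CPM), control livers (11.3 ± 2.09 CPM), combined brains (7.65 ± 3.48 CPM), polystyrene brains (5.86 ± 1.28 CPM) and control brains (4.10 ± 1.92 CPM), and every pair of neighbours overlapped.

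Fold changes came from a fit over all clusters tested in a tissue, and all 3 members passed its filter on low counts in both tissues. Between cadmium and control brains the log2 fold change was 3.54 ± 0.59 (SE) for the long HSP70 cluster, 1.51 ± 0.43 for the short HSP70 cluster and 1.14 ± 0.21 for the HSP90 cluster. In all 3 the cadmium and control brains did not overlap, as for 23.4% of all clusters tested, and the long HSP70 cluster and the HSP90 cluster were among the clusters called at an adjusted p under 0.05, 4.34% of all in either direction. Without cadmium replicate 6 the log2 fold change of the long HSP70 cluster was 2.70 ± 0.43. Without control replicate 5 the values were 3.21 ± 0.68, 1.20 ± 0.43 and 0.95 ± 0.16 in the same order of members. Nothing is read from these counts, or from any call of a member in the comparisons below, since the members were picked with their values known.

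Between cadmium and control livers the log2 fold change was 2.82 ± 0.72 for the long HSP70 cluster, 0.54 ± 0.20 for the short HSP70 cluster and 0.78 ± 0.18 for the HSP90 cluster. None of the 3 overlapped between these groups, as for 23.3% of clusters tested, and the HSP90 cluster was the member called, against 3.46% of clusters in either direction. The error of the long HSP70 cluster depended on the samples fitted: in a fit of the 6 cadmium and control livers alone it was 2.82 ± 0.12, without polystyrene replicate 1 it was 2.82 ± 0.53 and without combined replicate 1 it was 2.82 ± 0.55. Over the other fits of this comparison, the long HSP70 cluster was called in 5 of 20 and the HSP90 cluster in 11 of 19, and nothing is read from these counts either. The difference between the tissues in the response to cadmium, brain minus liver, was 0.73 ± 0.92 log2 for the long HSP70 cluster, 0.98 ± 0.49 for the short HSP70 cluster and 0.38 ± 0.29 for the HSP90 cluster. That of the long HSP70 cluster was -0.10 without cadmium brain replicate 6. Without control brain replicate 5 the 3 were 0.39 ± 0.96, 0.65 ± 0.46 and 0.17 ± 0.25.

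Under polystyrene alone the long HSP70 cluster had a log2 fold change of -0.58 ± 0.56 in brain and 0.82 ± 0.70 in liver against the controls, and the liver value was -0.20 ± 0.58 without polystyrene replicate 1. The short HSP70 cluster had 0.50 ± 0.43 in brain and 0.33 ± 0.20 in liver. The HSP90 cluster had 0.24 ± 0.21 in brain and -0.18 ± 0.18 in liver. Without control replicate 5 the brain values were -0.90 ± 0.61, 0.20 ± 0.42 and 0.06 ± 0.15 for the long HSP70, short HSP70 and HSP90 clusters. The short HSP70 cluster in liver was the only one of these whose groups did not overlap, as for 27.2% of clusters tested in brain and 24.5% in liver.

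With both pollutants in the food, the long HSP70 cluster and the HSP90 cluster lay near the controls. Against control brains the log2 fold change was 0.19 ± 0.55 for the long HSP70 cluster, 0.87 ± 0.43 for the short HSP70 cluster and 0.11 ± 0.21 for the HSP90 cluster, and all 3 overlapped between the groups, where 19.3% of clusters did not. Without control replicate 5 the values were -0.14 ± 0.61, 0.56 ± 0.43 and -0.09 ± 0.15, so that those of the long HSP70 cluster and the HSP90 cluster changed sign. Against control livers it was -0.25 ± 0.72, 0.80 ± 0.19 and -0.20 ± 0.18 for the same members. Without combined liver replicate 1 the value of the long HSP70 cluster was 0.24 ± 0.60. The short HSP70 cluster was the member whose livers did not overlap, as for 26.5% of clusters, and the member called, against 6.24% of clusters in either direction.

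Set against cadmium alone, the combined brains had a log2 fold change of -3.35 ± 0.59 for the long HSP70 cluster, -0.64 ± 0.42 for the short HSP70 cluster and -1.03 ± 0.21 for the HSP90 cluster. The combined livers had -3.07 ± 0.73, 0.26 ± 0.19 and -0.98 ± 0.18 against cadmium livers. In both tissues the long HSP70 cluster and the HSP90 cluster did not overlap between the groups, as for 22.4% of clusters in brain and 21% in liver. Both were called in brain and the HSP90 cluster in liver, beside 2.79% and 2.5% of all clusters in either direction. These comparisons share the cadmium samples with those against the controls. Against polystyrene alone, the combined brains had log2 fold changes of 0.77 ± 0.56, 0.38 ± 0.43 and -0.13 ± 0.21, and the combined livers -1.07 ± 0.71, 0.47 ± 0.19 and -0.02 ± 0.18, for the long HSP70 cluster, the short HSP70 cluster and the HSP90 cluster in that order. Only the short HSP70 cluster in liver did not overlap between these groups, as for 25.6% of clusters in brain and 19.3% in liver. Without polystyrene replicate 1 the liver value of the long HSP70 cluster was -0.05.

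Relative to the sum of both single-exposure log2 changes, the combined exposure departed by -2.77 ± 0.79 in brain and -3.89 ± 1.01 in liver for the long HSP70 cluster. For the HSP90 cluster it was -1.28 ± 0.29 in brain and -0.79 ± 0.26 in liver. The short HSP70 cluster had -1.14 ± 0.60 in brain and -0.07 ± 0.27 in liver, where the value was smaller than its error. The departure of the HSP90 cluster in brain was called, beside 5.97% of all clusters in brain, and that in liver was not, beside 1.78%. Without cadmium brain replicate 6 that of the long HSP70 cluster was -1.93 ± 0.58, and without polystyrene liver replicate 1 it was -2.87 ± 0.77. Without control brain replicate 5 the departures in brain were -2.46 ± 0.84 for the long HSP70 cluster, -0.84 ± 0.56 for the short HSP70 cluster and -1.10 ± 0.20 for the HSP90 cluster.

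**Figure D2:**
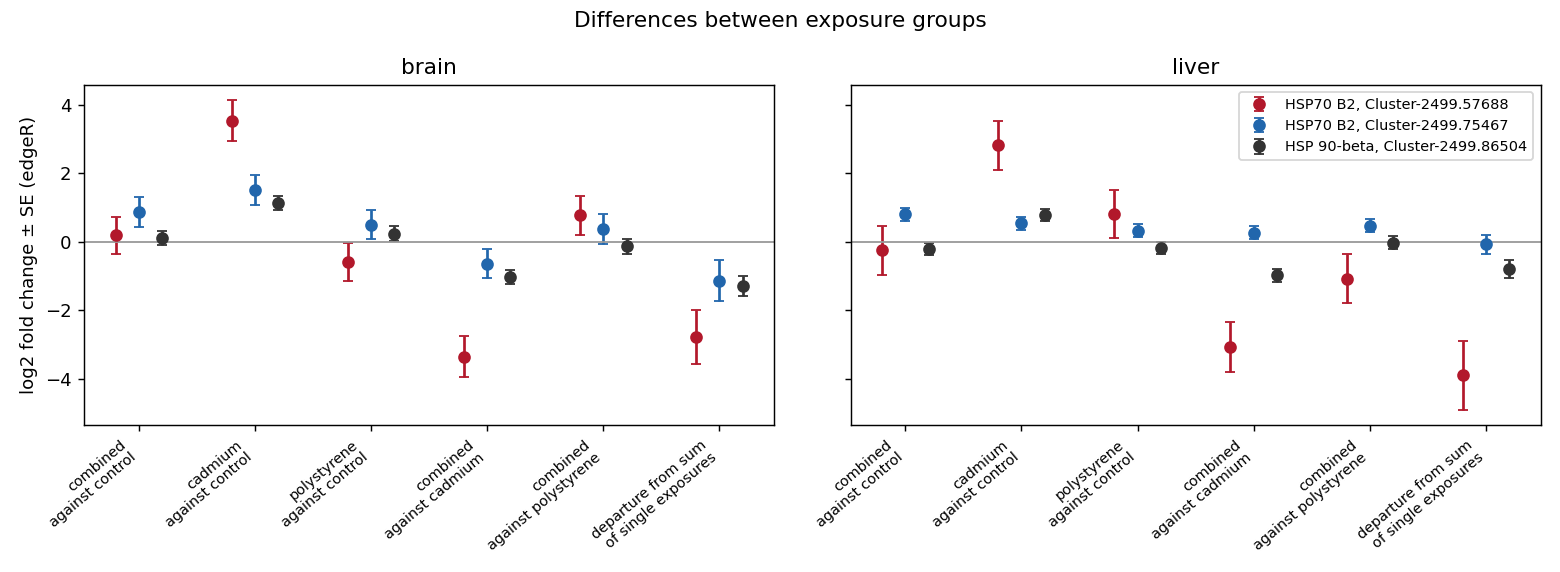
Log2 fold changes with their standard errors for the 3 members in brain and liver, for each comparison of diets and for the departure of the combined exposure from the sum of the single ones. The long HSP70 cluster reads 3.54 in brain and 2.82 in liver for cadmium against control, and -3.35 and -3.07 for combined against cadmium.

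In the controls, brain against liver, the log2 difference was -0.46 ± 0.67 for the long HSP70 cluster, -1.47 ± 0.36 for the short HSP70 cluster and -0.78 ± 0.20 for the HSP90 cluster. The last 2 were called, where 49.7% of all clusters were, and none of the 3 overlapped, as for 54.6% of clusters. Without control brain replicate 5 the differences were -0.10 ± 0.73, -1.13 ± 0.36 and -0.55 ± 0.19. These values hold for the TMM scale. Scaling by library totals alone moved the median of all clusters by 0.64 log2 toward brain in this comparison, and with it the long HSP70 cluster to 0.18, the short HSP70 cluster to -0.82 and the HSP90 cluster to -0.14, so that the direction of the long HSP70 cluster turned. Among the diets such shifts of the median over 0.1 were 0.11 for polystyrene against control brains and -0.15 for combined against polystyrene brains.

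A comparison within each library needs no scaling between libraries. The most abundant HSP70 cluster was Heat shock cognate 71 kDa protein (HSC71, Cluster-2499.88384), which in vertebrates is the constitutive cytosolic copy. This cluster is 5770 bases long. The percentages below rest on the assembled lengths of the clusters, which were not checked. Per base of length, the long HSP70 cluster stood in brain at 2.83 ± 1.09% of the HSC71 level under combined exposure, 21.4 ± 16.4% under cadmium, 1.72 ± 0.578% under polystyrene and 2.37 ± 1.01% in controls. In liver it stood at 2.18 ± 1.49%, 13.9 ± 1.30%, 4.87 ± 3.95% and 2.24 ± 0.113% in the same order of diets. The long HSP70 cluster therefore stayed below HSC71 in every sample, the highest being 40.3% in a cadmium brain. The HSP90 cluster stood at 49.96 ± 7.71%, 73.1 ± 8.42%, 53.4 ± 7.41% and 43.0 ± 7.23% of HSC71 in combined, cadmium, polystyrene and control brains, and at 51.1 ± 8.56%, 74.8 ± 11.7%, 55.6 ± 7.72% and 50.1 ± 4.63% in the livers of these diets. The ratio to HSC71 was thus highest under cadmium for both, and the cadmium samples did not overlap with those of the other diets in either tissue. HSC71 itself had 934 ± 91.8 CPM in cadmium brains against 698 ± 123.3 CPM in control brains (log2 fold change 0.41 ± 0.19, edgeR adjusted p = 0.266) and 1189 ± 69.7 CPM in cadmium livers against 1042 ± 19.9 CPM in control livers (0.19 ± 0.09, edgeR adjusted p = 0.278).

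**Figure D3:**
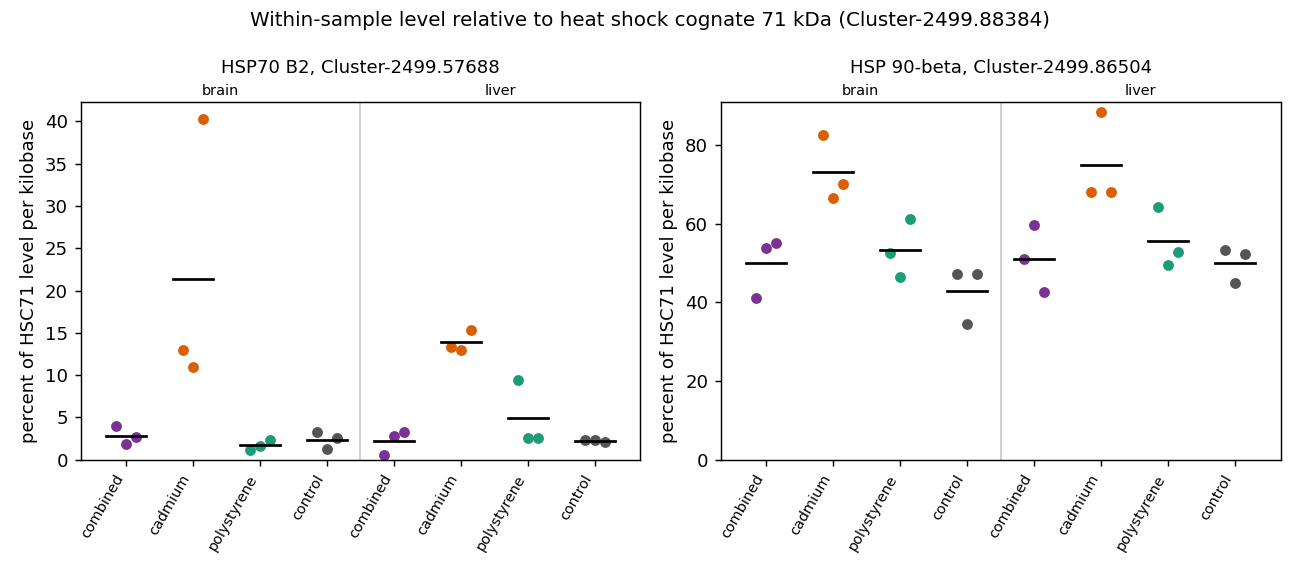
Level per kilobase of the long HSP70 cluster and the HSP90 cluster as a percent of that of HSC71 in the same sample (points) with the group mean (line), by diet and tissue, on linear axes from 0. Cadmium samples of the long HSP70 cluster lie between 10.9 and 40.3% in brain and between 12.9 and 15.4% in liver, above all other samples of the tissue.

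The 3 clusters named Heat shock protein 70 B2 did not share 1 pattern. Across the 24 samples, with the mean of each tissue subtracted from log2(CPM + 1), the short HSP70 cluster correlated with Cluster-2499.85497 at r = 0.92 and with the fragment Cluster-2499.104474, named Heat shock 70 kDa protein, at r = 0.88, and the last 2 with each other at r = 0.96. The long HSP70 cluster correlated with the short HSP70 cluster at r = 0.55 over both tissues, 0.75 within brain and 0.19 within liver. With the HSP90 cluster it correlated at 0.83, 0.84 within brain and 0.81 within liver. These are descriptions over samples that share diets and libraries, and short pieces of 1 gene or reads shared between copies were not told apart.

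Cluster-2499.85497, which is no member, had 14.0 ± 6.17 CPM in combined brains, 26.6 ± 10.1 CPM in cadmium brains, 10.6 ± 2.83 CPM in polystyrene brains and 6.75 ± 4.31 CPM in control brains. In the livers of these diets it had 46.1 ± 8.56, 33.6 ± 2.18, 35.7 ± 3.56 and 29.2 ± 11.8 CPM. Its log2 fold change for cadmium against control was 1.97 ± 0.52 in brain (edgeR adjusted p = 0.0559) and 0.21 ± 0.22 in liver (edgeR adjusted p = 0.687), so neither passed the threshold. Without control brain replicate 5 the brain value was 1.55 ± 0.41 (edgeR adjusted p = 0.0737). Cluster-2499.104474 rose in combined livers (16.1 ± 3.27 against 8.05 ± 3.52 CPM in control livers, log2 fold change 0.99 ± 0.27, edgeR adjusted p = 0.0464), a call lost in 8 of 12 omissions of a library. Counted together, the 3 clusters named Heat shock protein 70 B2 had a log2 fold change of 1.31 for cadmium against control livers and 2.80 for cadmium against control brains.

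**Figure D4:**
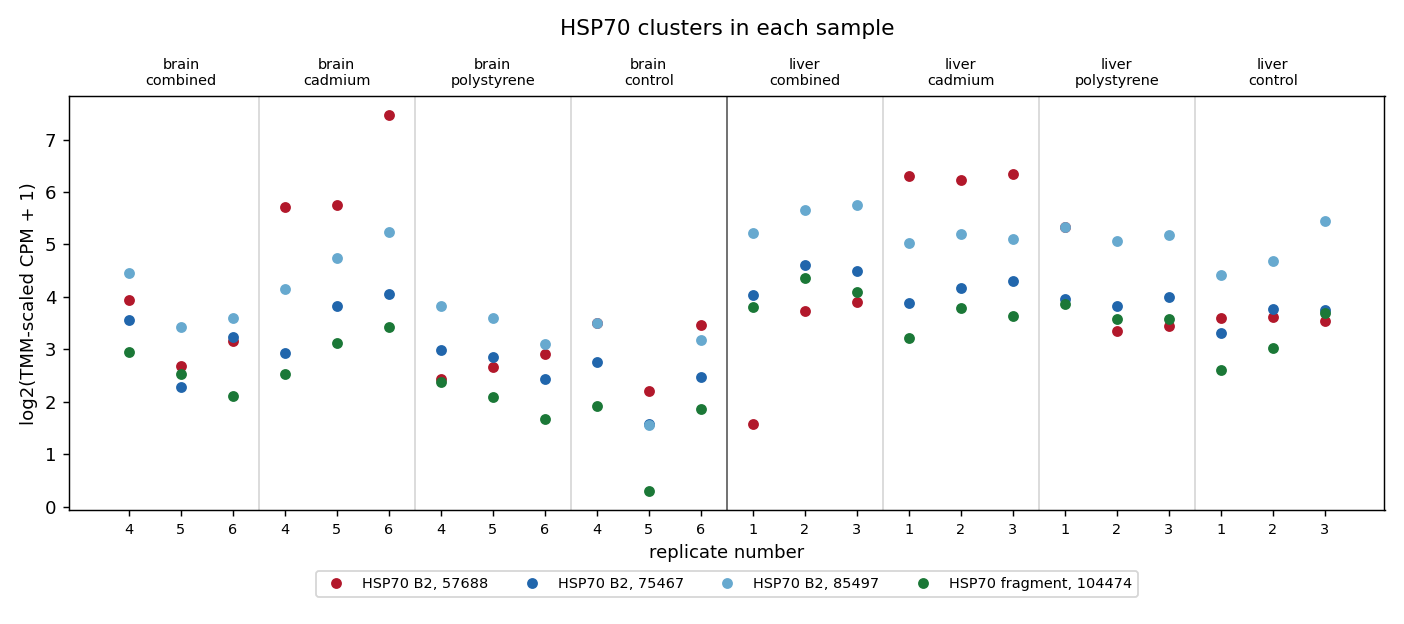
Log2(CPM + 1) of the long HSP70 cluster, the short HSP70 cluster and the companion clusters Cluster-2499.85497 and Cluster-2499.104474 in every sample (points), by group and replicate number. The long HSP70 cluster is the highest of the 4 in all cadmium samples, and Cluster-2499.85497 is higher than it in all combined livers. In brain control replicate 5 all 4 lie at the bottom of their group.

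The clusters most like each member were sought among 12398 with an informative name and a mean of at least 2 CPM. For the long HSP70 cluster they were DnaJ homolog subfamily B member 5 (Cluster-2499.86732, r = 0.83), the HSP90 cluster itself, the replication factor mcm2 (Cluster-2499.143266, r = 0.82), the damage-inducible protein GADD45 alpha (Cluster-2499.97391, r = 0.80), Mitofusin-1, which fuses mitochondria (Cluster-2499.52723, r = 0.78), and Telomerase protein component 1 (Cluster-2499.88261, r = 0.77). DnaJ B5 averaged 109 ± 21.9 CPM in combined brains, 171 ± 70.8 CPM in cadmium brains, 58.9 ± 6.64 CPM in polystyrene brains and 90.8 ± 32.9 CPM in control brains. GADD45 alpha averaged 11.2, 21.7, 10.9 and 8.69 CPM in combined, cadmium, polystyrene and control livers. Most unlike it were the kinase that switches off pyruvate dehydrogenase (Cluster-2499.90720, r = -0.77), Phospholipase A and acyltransferase 2 (Cluster-2499.93076, r = -0.75) and Ubiquitin-conjugating enzyme E2 H (Cluster-2499.93723, r = -0.73).

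The HSP90 cluster was most like Heat shock protein 60A, the mitochondrial chaperonin (Cluster-2499.90671, r = 0.89), HSC71 (r = 0.84), the glutamate and proline tRNA ligase (Cluster-2499.86585, r = 0.84), mcm2 (r = 0.84), the vesicle coat protein Sec31A (Cluster-2499.85920, r = 0.84) and the long HSP70 cluster. Lowest were RING finger protein 150 (Cluster-2499.86789, r = -0.87), the mitochondrial HIG1 domain protein 1A (Cluster-2499.90228, r = -0.84) and NDRG3 (Cluster-2499.87635, r = -0.82). For the short HSP70 cluster the 4 after its companions were the lysosomal Phospholipase B-like 2 (Cluster-2499.90611, r = 0.86), Ribonuclease Oy (Cluster-2499.83316, r = 0.84), the ubiquitin ligase TRIM56 (Cluster-2499.74942, r = 0.83) and the nuclear pore protein Nup85 (Cluster-2499.75548, r = 0.82), and the lowest were Ganglioside GM2 activator, the RNA polymerase I subunit RPA12 and cytoplasmic Aspartate aminotransferase, each at r = -0.73. Among the 50 clusters most like each member, 8 were chaperones for the long HSP70 cluster, 3 for the short HSP70 cluster and 8 for the HSP90 cluster, where chaperones were 0.694% of the clusters searched. The long HSP70 cluster and the HSP90 cluster, picked with their values known, each count among the 8 of the other. Those of the short HSP70 cluster include its companions, which may be pieces of the same gene or share reads with it. Nothing is read from these counts.

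Beside the members stood 100 other chaperone clusters in 7 lists made by name: the HSP70 and HSP90 families, HSP40 and other co-chaperones, heat shock factors, HSP60 with the cytosolic chaperonin TRiC, and small heat shock proteins, which hold unfolding proteins without ATP. Those that passed the filter on low counts were tested in edgeR's fit over all clusters with Benjamini-Hochberg adjustment. The lists were chosen with earlier results of these data known. In cadmium livers 7 of 88 tested passed and all 7 were higher, beside 3.46% of all clusters in either direction, and the median log2 fold change of the 88 was 0.12. Cluster-2499.82162, a small heat shock protein named beta-1, rose to 34.3 ± 5.31 CPM, against 14.5 ± 1.19 CPM in control livers (log2 fold change 1.24 ± 0.15, edgeR adjusted p = 0.00109). Cluster-2499.98256, the related beta-6, rose to 53.4 ± 8.47 CPM, against 20.4 ± 1.11 CPM in control livers (1.39 ± 0.22, edgeR adjusted p = 0.00638). The BAG domain protein Samui (Cluster-2499.87282), whose domain binds HSP70, rose to 85.3 ± 16.3 CPM, against 48.5 ± 1.45 CPM (0.82 ± 0.15, edgeR adjusted p = 0.00864). DnaJ B5 rose to 158 ± 23.5 CPM, against 106 ± 9.35 CPM (0.58 ± 0.13, edgeR adjusted p = 0.0222), and lost this call in 3 of 12 omissions. Its likeness to the long HSP70 cluster was taken over these same samples, so its differences here and below add nothing on a link between them. The other 3 were both Alpha-crystallin A clusters and a STIP1-named cluster (Cluster-2499.95572), which lost their calls in 5 to 9 of 12 omissions. The number higher was 3 without control 2, control 3 or cadmium 2, and 4 without cadmium 1 or polystyrene 3.

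In cadmium brains 2 of 89 passed, both higher, beside 4.34% of all clusters in either direction, and the median was 0.16. BiP, the HSP70 of the endoplasmic reticulum (Cluster-2499.85374), rose to 696 ± 133 CPM, against 307 ± 88.1 CPM in control brains (log2 fold change 1.17 ± 0.27, edgeR adjusted p = 0.0252). A cluster of Alpha-crystallin B (Cluster-2499.65186) was the other (27.6 ± 2.34 against 16.04 ± 2.55 CPM, 0.77 ± 0.20, edgeR adjusted p = 0.0442). They lost these calls in 4 and 8 of 12 omissions. The number higher was 0 without control 5, control 6, cadmium 5 or cadmium 6, 1 without cadmium 4, polystyrene 5 or polystyrene 6, and 5 without combined 4. DnaJ B5 had 171 ± 70.8 CPM, against 90.8 ± 32.9 CPM (0.90 ± 0.31, edgeR adjusted p = 0.125), and did not pass.

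Under polystyrene alone 2 of 89 passed in brain and 2 of 88 in liver, all higher, beside 7.08% and 3.14% of all clusters in either direction. In brain these were the same Alpha-crystallin B cluster (30.7 ± 6.91 against 16.04 ± 2.55 CPM, a log2 fold change of 0.92 ± 0.20, edgeR adjusted p = 0.0151) and DnaJ C14 (Cluster-2499.82180, 0.80 ± 0.19, edgeR adjusted p = 0.0215). In liver they were Alpha-crystallin A (Cluster-2499.79270, 26.3 ± 3.56 against 15.5 ± 1.11 CPM, 0.77 ± 0.17, edgeR adjusted p = 0.0258) and DnaJ C25 (Cluster-2499.103852, 1.01 ± 0.25, edgeR adjusted p = 0.0437). The brain number was 1 without control 4, control 6, polystyrene 4, 5 or 6. The liver number was 0 without any 1 control or without polystyrene 1 or 3, and 1 without polystyrene 2 or cadmium 1, while the number lower was 1 without cadmium 1 or combined 1 and 2 without cadmium 3.

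In combined livers 6 of 10 small heat shock proteins tested were higher, beside 4 of 10 in cadmium livers and 1 of 10 in polystyrene livers. The beta-6 cluster rose to 82.5 ± 31.6 CPM, against 20.4 ± 1.11 CPM in control livers (log2 fold change 1.99 ± 0.23, edgeR adjusted p = 0.000722). Another Alpha-crystallin B cluster (Cluster-2499.83254) rose to 48.3 ± 6.59 CPM, against 20.8 ± 2.15 CPM (1.19 ± 0.18, edgeR adjusted p = 0.00253), and Alpha-crystallin A to 32.4 ± 5.25 CPM, against 15.5 ± 1.11 CPM (1.04 ± 0.17, edgeR adjusted p = 0.00382). The others were the beta-1 cluster, Heat shock protein 27 and the Alpha-crystallin A fragment, which lost their calls in 2, 4 and 5 of 12 omissions. Over all lists 7 of 88 were higher and 2 lower, beside 6.24% of all clusters in either direction, with a median of -0.05. Lower were Endoplasmin, the HSP90 of the endoplasmic reticulum (Cluster-2499.83154, 93.7 ± 9.10 against 138 ± 23.8 CPM, -0.58 ± 0.15, edgeR adjusted p = 0.0322), and DnaJ B13 (Cluster-2499.108277, 2.84 ± 0.219 against 9.12 ± 4.27 CPM, -1.71 ± 0.37, edgeR adjusted p = 0.0167), a homologue of which sits in sperm and cilia of mammals. The number higher was 4 without control 2, combined 2 or combined 3, and the number lower was 1 without control 1, 2 or 3, polystyrene 2 or combined 3 and 0 without combined 2. Clusters of the cilia list summed to 440 ± 26.3 CPM in combined livers and 1110 ± 472 CPM in control livers, and those of the muscle list to 1880 ± 60.1 and 1350 ± 91.3 CPM. Their part in these differences was not tested.

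In combined brains 2 of 89 were higher and 1 lower, beside 3.92% of all clusters in either direction. Heat shock protein 27 (Cluster-2499.101986) rose to 597 ± 121 CPM, against 162 ± 62.3 CPM in control brains (log2 fold change 1.86 ± 0.35, edgeR adjusted p = 0.0103), a call lost without control replicate 5 (1.68 ± 0.41, edgeR adjusted p = 0.0631). Muscle clusters summed to 29100 ± 8730 CPM in combined brains, 15100 ± 3730 CPM in cadmium brains, 13500 ± 3780 CPM in polystyrene brains and 13800 ± 5240 CPM in control brains, of 39 clusters with 11 at 0 in the combined group, and their part in the rise of Heat shock protein 27 was not tested. Alpha-crystallin B (Cluster-2499.65186) was the other one higher (0.88 ± 0.20, edgeR adjusted p = 0.0239). The lower one was a low-level DnaJ C16 cluster (Cluster-2499.127765, 0.498 ± 0.0879 against 1.51 ± 0.426 CPM, edgeR adjusted p = 0.0313). A more abundant cluster named DnaJ C16 (Cluster-2499.84569) was not lower. It had 13.7 ± 0.415 CPM in combined, 13.7 ± 0.547 CPM in cadmium, 14.5 ± 1.84 CPM in polystyrene and 10.9 ± 2.05 CPM in control brains. The number higher was 1 without control 4 or combined 6 and 0 without control 5, and the number lower was 0 in 6 of 12 omissions, among them each of the combined brains.

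Between combined and cadmium livers 8 of 88 chaperones were lower and 1 higher, beside 2.5% of all clusters in either direction, and the median was -0.17. DnaJ B5 fell to 93.7 ± 9.09 CPM in combined livers, against 158 ± 23.5 CPM in cadmium livers (log2 fold change -0.77 ± 0.13, edgeR adjusted p = 0.00836). BiP fell to 170 ± 15.6 CPM, against 312 ± 71.6 CPM (-0.91 ± 0.15, edgeR adjusted p = 0.0098), and Endoplasmin to 93.7 ± 9.10 CPM, against 163 ± 30.1 CPM (-0.83 ± 0.15, edgeR adjusted p = 0.0115). HSC71 fell to 898 ± 42.5 CPM, against 1189 ± 69.7 CPM (-0.43 ± 0.09, edgeR adjusted p = 0.0258), a call lost in 5 of 12 omissions. Samui, DnaJ A1, DnaJ B11 and DnaJ C3, partners of HSP70 in cytosol or endoplasmic reticulum, were also lower, by log2 fold changes of -0.87 to -0.42, and lost their calls in 3 to 7 omissions. Alpha-crystallin B (Cluster-2499.83254) was higher (48.3 ± 6.59 against 28.1 ± 8.02 CPM, 0.76 ± 0.17, edgeR adjusted p = 0.0361). Leaving out cadmium 1 or combined 2 left 4 lower, leaving out cadmium 2 left 3 and leaving out combined 3 left 2, and in 6 of 12 omissions no cluster was higher.

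Between combined and cadmium brains 3 of 89 were lower, beside 2.79% of all clusters in either direction. BiP fell to 325 ± 112 CPM in combined brains, against 696 ± 133 CPM in cadmium brains (log2 fold change -1.11 ± 0.27, edgeR adjusted p = 0.0425), Endoplasmin to 166 ± 21.4 CPM, against 293 ± 50.03 CPM (-0.83 ± 0.21, edgeR adjusted p = 0.0492), and the low-level DnaJ C16 cluster (Cluster-2499.127765) to 0.498 ± 0.0879 CPM, against 2.17 ± 0.514 CPM (-2.12 ± 0.39, edgeR adjusted p = 0.00913). They lost these calls in 6, 9 and 1 of 12 omissions. Leaving out control 5 gave 6 lower, leaving out cadmium 4 gave 0, and leaving out cadmium 5, cadmium 6, polystyrene 5, combined 5 or combined 6 gave 1, while 1 was higher without control 6 or polystyrene 6. Against polystyrene alone, 1 of 89 was lower in combined brains (the same low-level DnaJ C16 cluster, 0.498 ± 0.0879 against 2.18 ± 0.232 CPM, -2.12 ± 0.39, edgeR adjusted p = 0.0092) and 1 of 88 higher in combined livers (the beta-6 cluster, 82.5 ± 31.6 against 34.03 ± 3.24 CPM, 1.25 ± 0.22, edgeR adjusted p = 0.0161), beside 3.51% and 1.32% of all clusters in either direction. In brain 2 were lower without control 5 and 1 higher without control 6. In liver 2 were higher without cadmium 2 or 3 and none without polystyrene 2 or 3, and 1 was lower without control 1 or polystyrene 1.

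**Figure D5:**
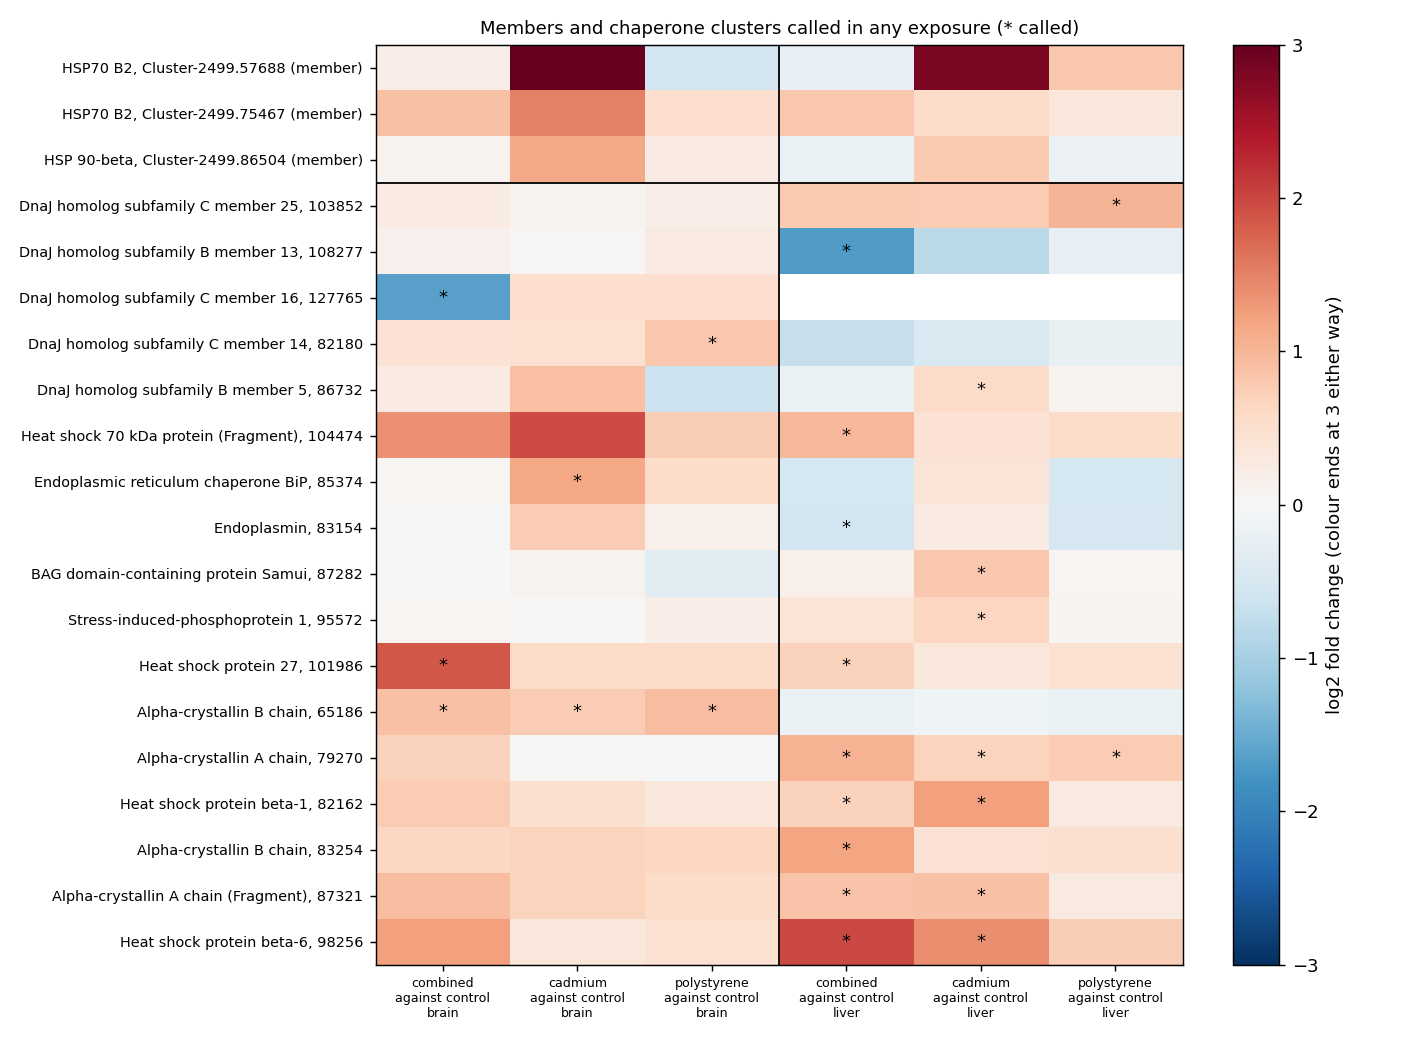
Log2 fold changes against the controls of the tissue for the 3 members and the 17 other chaperone clusters called for at least 1 diet, with an asterisk for a call (members carry none, and a blank cell was not tested). The small heat shock proteins hold 6 asterisks under combined exposure and 4 under cadmium in liver, and the long HSP70 cluster has the deepest colour under cadmium in both tissues.

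Heat shock factor 1, the most abundant STIP1 cluster and Cdc37 did not pass the test against the controls for any diet. Heat shock factor protein 1 (Cluster-2499.51623) had 4.96 ± 1.63 CPM in combined brains, 6.23 ± 0.413 CPM in cadmium brains, 8.47 ± 1.33 CPM in polystyrene brains and 6.52 ± 0.646 CPM in control brains, and for cadmium in brain its log2 fold change was -0.08 ± 0.25 (edgeR adjusted p = 0.91). In cadmium livers it had 4.09 ± 1.502 CPM, against 3.13 ± 0.372 CPM in control livers (0.39 ± 0.31, edgeR adjusted p = 0.563). The most abundant STIP1 cluster (Cluster-2499.84653), which hands clients over to HSP90, had 79.2 ± 10.48 CPM in cadmium livers, against 66.6 ± 7.12 CPM (0.26 ± 0.12, edgeR adjusted p = 0.295). Cdc37, which brings kinases to HSP90 (Cluster-2499.84632), had 37.8 ± 2.90 CPM, against 32.0 ± 3.04 CPM (0.25 ± 0.13, edgeR adjusted p = 0.334). The mitochondrial Heat shock protein 60A had 205 ± 31.1 CPM, against 145 ± 16.2 CPM (0.50 ± 0.16, edgeR adjusted p = 0.0989). A p over the threshold does not show that these levels were equal.

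In control brains against control livers 20 of 91 chaperones were higher and 19 lower, beside 49.7% of all clusters in either direction, and under library totals 49 were higher and 6 lower. Of the HSP70 family 2 were higher and 8 lower. HSC71 was lower on the TMM scale (698 ± 123.3 against 1042 ± 19.9 CPM, a log2 fold change of -0.58 ± 0.15, edgeR adjusted p = 0.00266). It lost this call in 0 of 24 omissions and in 2 of the other settings. Library totals moved the median of all clusters by 0.64 log2 toward brain, more than this difference. Cluster-2499.85497 was lower too (6.75 ± 4.31 against 29.2 ± 11.8 CPM, -2.11 ± 0.44, edgeR adjusted p = 0.000474), with -1.67 ± 0.37 (edgeR adjusted p = 0.00116) without control brain replicate 5. Heat shock factor protein 1 was higher (6.52 ± 0.646 against 3.13 ± 0.372 CPM, 1.06 ± 0.28, edgeR adjusted p = 0.00333), and so was Heat shock protein 27 (162 ± 62.3 against 9.56 ± 0.692 CPM, 4.09 ± 0.32, edgeR adjusted p = 2.16e-10).

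Marker lists of other cell types were summed beside the members. In liver the 11 haemocyte clusters summed to 23.4 ± 0.919 CPM in combined, 18.9 ± 4.0 CPM in cadmium, 18.7 to 21.3 CPM in polystyrene and 363 ± 209 CPM in control samples. In brain they summed to 383 ± 81.3, 181 ± 27.1, 227 ± 46.5 and 203 ± 89.2 CPM in the same order. Digestive gland clusters summed to 43200 ± 3010 CPM in combined, 42300 ± 6270 CPM in cadmium, 36700 ± 3140 CPM in polystyrene and 39000 ± 3850 CPM in control livers. In the brains of these diets they summed to 2380 ± 440, 3660 ± 565, 2630 ± 186 and 3130 ± 1410 CPM. Muscle clusters in cadmium livers (1580 to 1910 CPM) lay above those in control livers (1240 to 1410 CPM), and cilia clusters summed to 606 ± 102 CPM in cadmium livers and 1110 ± 472 CPM in control livers. Muscle clusters in cadmium brains overlapped with those in control brains (12500 to 19400 against 8960 to 19300 CPM). Mitochondrially encoded transcripts summed to 20200 ± 958 CPM in cadmium brains and 33600 ± 15100 CPM in control brains, and to 29600 ± 1950 CPM in cadmium livers and 25700 ± 2580 CPM in control livers. The part of these in the levels of the members was not tested.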

How the data were processed

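Per the labels, total RNA was purified (Rneasy mini plus kit, Qiagen) and libraries were made with the SMARTER mRNA-Seq kit. The authors deposited 1 table of raw expected counts per cluster, with between 3.54 and 7.14% of the values per sample not whole, and with gene length and annotation columns. The assembler, aligner and counter are not given in the sources used here. The submitters' processing notes list a mouse genome build, which was not used, and no coordinates or sequences were used.

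Counts were rounded and fitted in edgeR 4.0.16 (R 4.3.3) with TMM scaling, filterByExpr at its minimum of 10 counts and the robust quasi-likelihood test, with Benjamini-Hochberg adjustment over all clusters tested at a threshold of 0.05. Fits held the 12 samples of a tissue (55762 clusters in liver, 64047 in brain, 98.72% and 98.57% of counts) or all 24 (78809 clusters) for tissue comparisons. The fit was also run on simulated counts for cadmium against control livers only, drawn with spreads estimated from the liver samples. That run does not cover outlying libraries or the fits of brain and of all 24 samples. No 2 samples held identical values. With 3 samples against 3, an exact permutation of a single value cannot go below p = 0.1.

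The members and lists were chosen with earlier results of these data known. Beside the members, the text takes chaperone clusters called in a comparison with at least 2 CPM in the higher group (up to 6 per comparison by adjusted p and 2 more per list), the most abundant of each list, clusters sharing a member's name, and the 6 most and 3 least correlated clusters. The rule gave 34 distinct chaperone clusters, not all of which are named. Clusters lower or higher only between combined and cadmium samples were named after their values were seen. Other settings tried were DESeq2 1.42.0 size factors, library totals, the DESeq2 Wald test, no filter, at least 1 CPM in 3 samples, only the 6 samples compared, a replicate block, counts summed by name and each sample left out. Where an omission left fewer samples, the spread was pooled over groups.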

Additional observations from a re-analysis of the deposited data

How the results depend on the processing

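The members' log2 fold changes moved by less than the spread between replicates in 48 of 48 values under DESeq2 size factors, the DESeq2 Wald test and no filter, in 33 of 33 with the 6 compared samples alone, in 36 of 36 with a replicate block, and in 43 of 48 under library totals. Counted together by name, the HSP70 clusters had 1.31 for cadmium in liver, 2.80 for cadmium in brain and 0.20 for polystyrene in brain, and 15 of 32 values moved by more than that spread. The sum had the other sign than the long HSP70 cluster alone for polystyrene in brain (-0.58 alone), for combined against control livers (0.53, alone -0.25) and for combined against polystyrene livers (0.10, alone -1.07), and than the short HSP70 cluster alone for combined against cadmium livers (-0.78, alone 0.26) and for the polystyrene response of brain minus that of liver (-0.22, alone 0.18). Leaving out 1 library gave, against the controls in liver, 2.79 to 2.85, 0.40 to 0.67 and 0.62 to 0.90 for cadmium, -0.20 to 1.17, 0.18 to 0.42 and -0.38 to -0.06 for polystyrene, and -0.64 to 0.24, 0.65 to 0.97 and -0.37 to -0.07 for the combination (long HSP70, short HSP70 and HSP90 in that order). In brain it gave 2.70 to 3.84, 1.20 to 1.83 and 0.95 to 1.38 for cadmium, -0.90 to -0.35, 0.20 to 0.81 and 0.06 to 0.49 for polystyrene, and -0.27 to 0.48, 0.56 to 1.21 and -0.09 to 0.34 for the combination.

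The count of chaperones called changed more. Library totals gave 4 higher for cadmium in liver, 5 lower for combined against control livers, 0 higher for combined against cadmium livers, 4 higher for cadmium in brain, and 49 higher and 6 lower between control tissues. No filter gave 11 higher for cadmium and 3 lower for polystyrene in liver, 2 higher for combined against cadmium livers, 3 higher and 1 lower for combined against polystyrene livers, 10 higher for cadmium and 1 lower for polystyrene in brain, 6 higher and 0 lower for combined against control brains, 2 higher and 7 lower for combined against cadmium brains, and 4 higher and 2 lower for combined against polystyrene brains. The filter of 1 CPM in 3 samples gave 1 lower for polystyrene in liver. The DESeq2 Wald test gave 3 lower for polystyrene and 4 lower for combined against control livers, 2 higher and 1 lower for combined against polystyrene livers, 7 higher for cadmium, 4 higher and 2 lower for polystyrene and 4 higher and 2 lower for the combination in brain, 1 higher and 6 lower for combined against cadmium brains, and 2 higher for combined against polystyrene brains. Fits of the 6 samples alone gave 1 lower for polystyrene in liver, 0 higher and 3 lower for combined against cadmium livers, 2 higher for combined against polystyrene livers, 1 higher for cadmium, 1 higher for polystyrene and 1 higher and 0 lower for the combination in brain, 1 higher and 5 lower for combined against cadmium brains, 1 higher for combined against polystyrene brains, and 13 higher and 9 lower between control tissues. The cause was not tested.

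Leaving out 1 library gave these ranges in liver: cadmium 3 to 9 higher, polystyrene 0 to 3 higher and 0 to 2 lower, combined 4 to 7 higher and 0 to 3 lower, combined against cadmium 0 to 1 higher and 2 to 9 lower, combined against polystyrene 0 to 2 higher and 0 to 1 lower. In brain they were cadmium 0 to 5 higher, polystyrene 1 to 2 higher, combined 0 to 3 higher and 0 to 1 lower, combined against cadmium 0 to 1 higher and 0 to 6 lower, combined against polystyrene 0 to 1 higher and 1 to 2 lower. Between control tissues they were 17 to 20 higher and 13 to 20 lower.

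No clear pairing of samples by replicate number was seen, though so few samples cannot exclude one. Deviations of same-numbered samples from their group means correlated at a median of 0.0 in liver and 0.03 in brain, and 4 of 12 livers and 6 of 12 brains correlated best with their own number. The median for unlike numbers was -0.0 in liver and -0.03 in brain. Of the same-numbered pairs, 1 of 18 in liver and 4 of 18 in brain were above 0.1. With a replicate block, polystyrene livers had 1 chaperone higher, combined livers 1 lower and combined brains 0 lower, and the total called for cadmium against control was 1497 in liver and 2128 in brain, against 1930 and 2782 without it.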

Other observations

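The HSP70 and HSP90 groups of the annotation also held 8 clusters whose best match is a flatworm protein. Their counts summed to 98 in combined brain replicate 4, 55 in cadmium brain replicate 6, 156 in polystyrene brain replicate 5, 58 and 230 in control brain replicates 5 and 6, and 26 and 33 in polystyrene liver replicates 1 and 3, and to 0 in each of the other 17 samples. All 258 clusters with a flatworm best match held between 10212 and 40380 counts in each of the 24 samples. A 0 in the heat shock clusters therefore does not mark a sample without flatworm-matched counts. Combined brain replicate 4, cadmium brain replicate 6 and polystyrene liver replicate 1, the samples highest in the long HSP70 cluster within their groups, are among the 7 with counts in the 8 heat shock clusters, and so are control brain replicate 5, the lowest of its group, and polystyrene brain replicate 5. In every other group the sample highest in the long HSP70 cluster had 0. Control brain replicate 6, with the most such counts, was not the highest of its group. In cadmium brain replicate 6 the long HSP70 cluster itself held 3864 counts beside these 55. Reads shared between the snail and flatworm clusters were not tested.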
